A study of Arabidopsis thaliana with 2 samples.

Results

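The 10 type-A ARABIDOPSIS RESPONSE REGULATOR (ARR) genes, 10 of the 27444 protein-coding genes on chromosomes 1 to 5 of Arabidopsis thaliana, were examined for sites of open chromatin. The members were taken by their gene identifiers, and every MNase hypersensitive site (MHS) was counted that overlapped a window from 3 kb upstream of the transcription start site (TSS) to 1 kb past the transcription termination site (TTS). All 10 genes were found in the RefSeq annotation, which names ARR5, ARR8, ARR16 and ARR17 as RR5, RR3, RR16 and RR17. The members form 5 paralogue pairs: ARR3 and ARR4, ARR5 and ARR6, ARR7 and ARR15, ARR8 and ARR9, and ARR16 and ARR17.

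MHSs were mapped by MH-seq, in which cross-linked chromatin is lightly digested with micrococcal nuclease (MNase) and the small DNA fragments released from accessible regions are sequenced. The data were 2 libraries of 1 group, seedlings of the ecotype Col-0 aged 2 weeks with no treatment named in the labels, fixed with 1% formaldehyde, from which fragments below 100 bp were recovered. The library without a number in its label is called replicate 1 and the library labelled as the second replicate is called replicate 2. The lists held 70046 MHSs in replicate 1 and 49934 in replicate 2, with a median length of 146 bp and 187 bp and with 36.4% and 13.4% of MHSs at most 100 bp long. The lists give positions alone, so no signal or read depth stands behind a single MHS, the labelled tissue could not be checked from marker genes, and no test between conditions could be made. Whole seedlings mix many cell types, and cells open at a gene in a few tissues cannot be told apart from cells open to a lesser degree in many.

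Cytokinin is a plant hormone perceived by membrane histidine kinases. A phosphate group then passes through histidine phosphotransfer proteins to nuclear type-B response regulators, which bind DNA and switch on target genes, the type-A ARR genes among them. Type-A ARRs carry a receiver domain but no DNA-binding domain, and most of them dampen the response that induced them, which closes a feedback loop. The type-A genes are widely used as readouts of cytokinin signalling in shoot and root meristems.

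The longest stretch per gene that was inside MHSs in both replicates, within the 1 kb upstream, is shown. The genes are those of the 3 pairs in which both upstream cover values of a gene exceeded both values of its paralogue. Other shared stretches upstream of ARR4, ARR8 and ARR9 count towards the cover but are not shown. The stretches shown are read 5′ to 3′ on the strand of the gene from the TAIR10.1 sequence in RefSeq. They lie outside annotated genes and are cut at 300 bases, which shortens the ARR9 stretch of 332 bp. Capitals mark AGATT and AGATC, core letters of type-B ARR sites, on either strand. The ARR4 stretch is chr1:3444663-3444946 on the minus strand and the ARR7 stretch is chr1:6579315-6579522 on the minus strand. The ARR8 stretch is chr2:17221182-17221406 on the plus strand and the ARR9 stretch is chr3:21108630-21108929 on the plus strand. ARR15 had no upstream stretch in both replicates, and its sequence is the only MHS found there, in replicate 1 alone, at chr1:28133138-28133181 on the minus strand. ARR3 had no upstream MHS, so no sequence is given.
ARR4: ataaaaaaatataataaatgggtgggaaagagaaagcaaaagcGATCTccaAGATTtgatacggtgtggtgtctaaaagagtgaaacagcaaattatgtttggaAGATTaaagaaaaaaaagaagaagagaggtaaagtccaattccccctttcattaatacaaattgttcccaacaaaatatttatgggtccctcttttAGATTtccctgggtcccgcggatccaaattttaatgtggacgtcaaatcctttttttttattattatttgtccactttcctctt
ARR7: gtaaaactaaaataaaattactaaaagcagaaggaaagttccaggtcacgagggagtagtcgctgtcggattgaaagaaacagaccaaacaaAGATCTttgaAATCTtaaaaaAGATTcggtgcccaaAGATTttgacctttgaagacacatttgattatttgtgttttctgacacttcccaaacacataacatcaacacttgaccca
ARR15: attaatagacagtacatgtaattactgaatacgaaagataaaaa
ARR8: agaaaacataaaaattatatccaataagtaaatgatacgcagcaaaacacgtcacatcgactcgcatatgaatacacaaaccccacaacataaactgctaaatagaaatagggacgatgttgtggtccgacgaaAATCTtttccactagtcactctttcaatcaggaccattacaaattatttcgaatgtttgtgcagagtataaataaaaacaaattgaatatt
ARR9: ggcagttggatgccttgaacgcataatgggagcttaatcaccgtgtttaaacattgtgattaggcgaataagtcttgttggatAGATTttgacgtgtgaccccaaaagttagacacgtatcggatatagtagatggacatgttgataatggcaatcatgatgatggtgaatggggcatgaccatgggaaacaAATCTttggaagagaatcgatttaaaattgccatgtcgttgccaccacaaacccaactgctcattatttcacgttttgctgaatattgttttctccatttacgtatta
The ARR7 stretch of 208 bases reaches the TSS and holds 3 AGATT and 2 AGATC matches, and AGATC on both strands forms the palindrome AGATCT once. The ARR4 stretch of 284 bases holds 3 AGATT and 1 AGATC matches. The ARR8 stretch has 1 AGATT match, the ARR9 stretch has 2, and the 44 bases of ARR15 have none of either kind. These counts cover only the bases shown. In replicate 2, other shared upstream MHSs held 1 AGATC match at ARR4 (158 bp long) and 1 at ARR9 (291 bp long). Shared MHSs over the TSS of ARR8 (162 bp) and ARR9 (184 bp) held 1 AGATT match each in that replicate. The ARR7 stretch is part of a shared MHS that runs past the TSS into the gene. In replicate 2 that whole MHS (319 bp) held 5 AGATT, 6 AGATC and 2 AGATCT matches, those in the bases shown included.

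The member windows held 63 MHSs in replicate 1 and 48 in replicate 2. Per window the members had a median of 5.5 MHSs in replicate 1, from 2 at ARR7 to 10 at ARR5, ARR8 and ARR9, beside a median of 4 over all protein-coding genes. In replicate 2 the members had a median of 5, from 1 at ARR3, ARR7 and ARR15 to 9 at ARR4 and ARR8, beside 3 over all genes. Window length was similar, with a median of 6342.5 bp for the members and 6078 bp for all genes. Per kilobase of window the members had a median of 0.962 MHSs in replicate 1, against 0.626 for all genes, and of 0.856 in replicate 2, against 0.437 for all genes. These medians describe the list and are not a test of it.

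**Figure D1:**
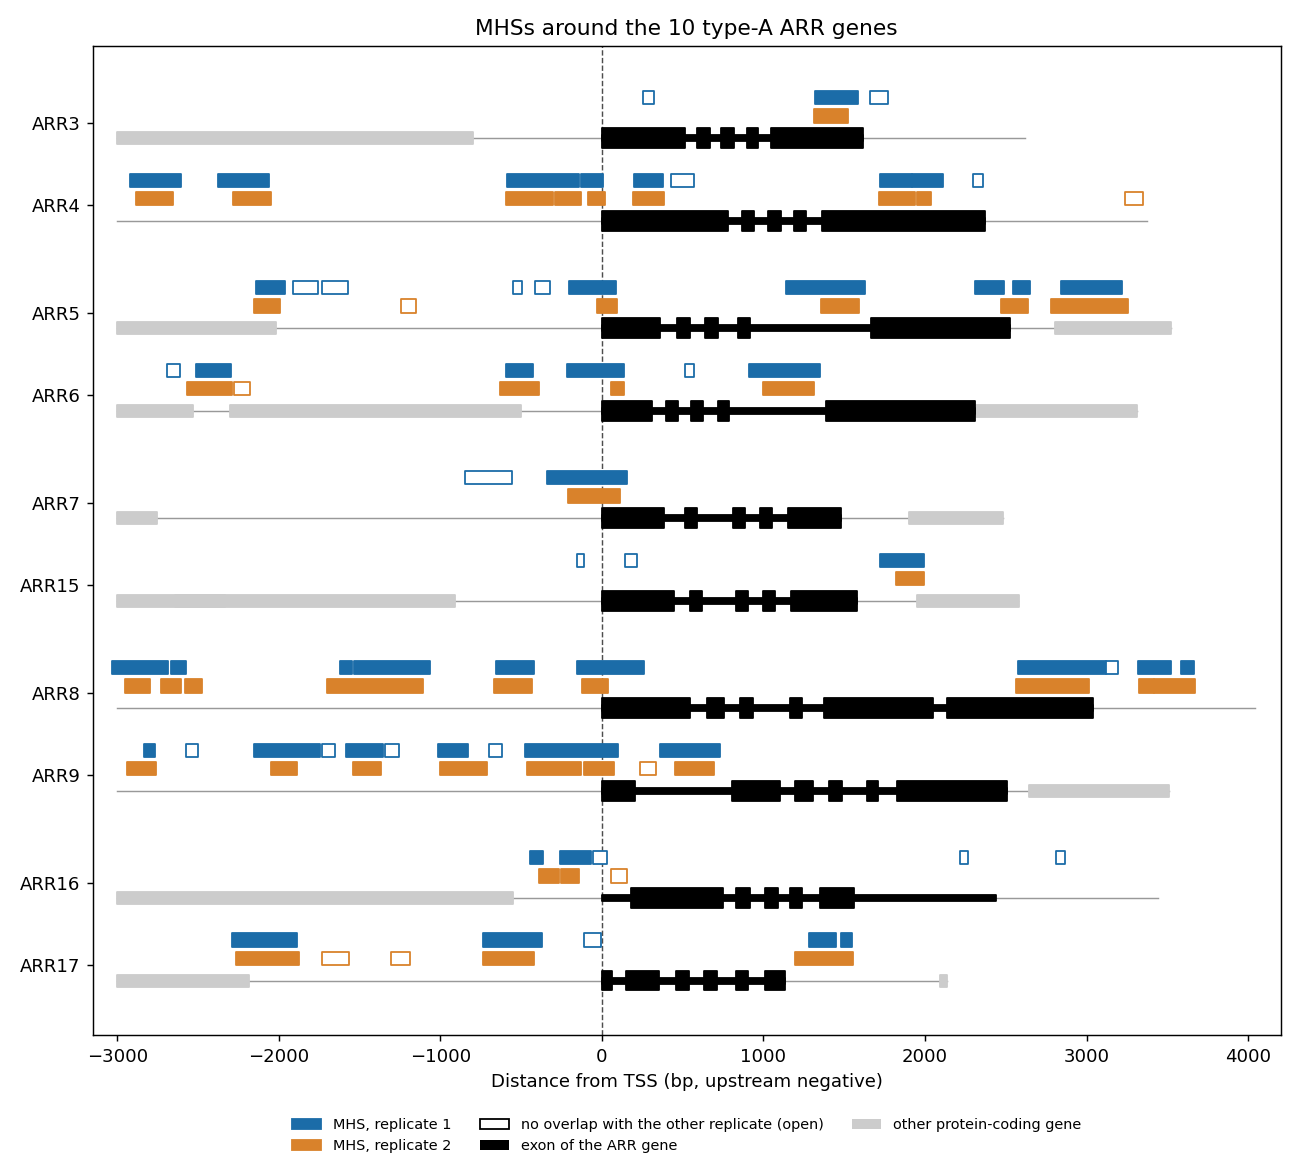
MHSs around the 10 type-A ARR genes, with the distance from the TSS in bp on the x axis and the genes grouped by paralogue pair. Blue boxes are MHSs of replicate 1, orange boxes are MHSs of replicate 2, open boxes have no overlap with the other replicate, black boxes are exons and grey boxes are other protein-coding genes. ARR3 and ARR15 have no filled box upstream of the TSS, and ARR8 and ARR9 have filled boxes in every kilobase of the 3 kb upstream.

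The 1 kb upstream of the TSS held an MHS shared by both replicates, meaning that an MHS of each replicate overlapped it and that the 2 shared at least 1 bp, in 8 of 10 members and in 70.4% of all protein-coding genes. The members without a shared upstream MHS were ARR3 and ARR15. Taken by itself, replicate 1 had an upstream MHS in 9 members, against 81.8% of genes, and replicate 2 in 8 members, against 73.6% of genes. In the 200 bp next to the TSS, 6 members and 58.2% of genes had a shared MHS, and over the TSS base itself 5 members and 46.6% of genes did. The members with a shared MHS over the TSS were ARR4, ARR5, ARR7, ARR8 and ARR9. These shares lie near the genome-wide background.

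**Figure D2:**
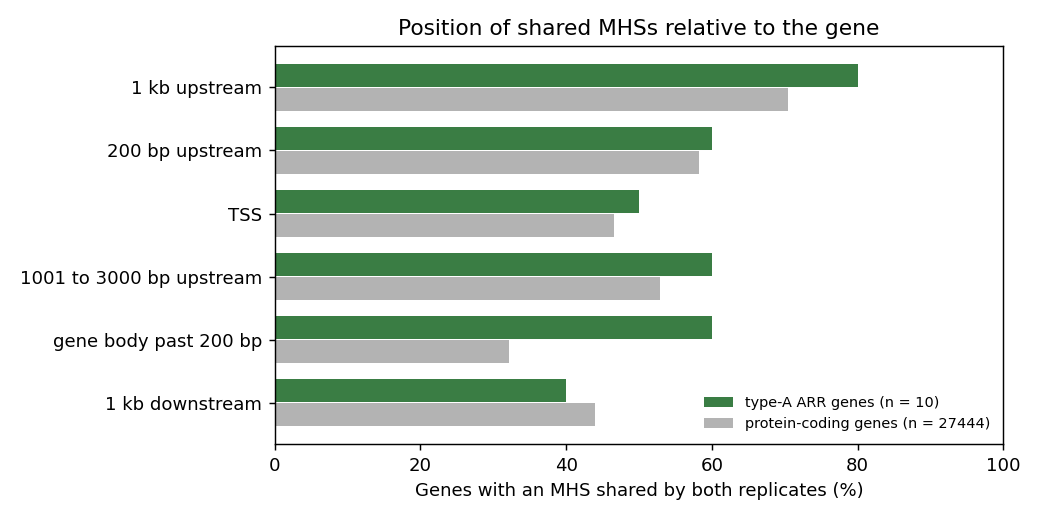
Percentage of genes with an MHS shared by both replicates, on the x axis, for 6 zones around the gene. Green bars are the 10 type-A ARR genes and grey bars are the 27444 protein-coding genes. The bars lie within 10 percentage points of each other except in the gene body past 200 bp, at 60% of the ARR genes and 32.2% of all genes.

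The number of bases inside MHSs in the 1 kb upstream ranged over the members from 0 to 726 in replicate 1, with a median of 387.5, beside a median of 220 for all genes with the middle 50% of genes between 76 and 401. In replicate 2 the range was 0 to 730 with a median of 238.5, beside 174 for all genes with the middle 50% between 0 and 324. ARR9 was highest in both replicates, and 4.36% and 1.93% of all genes had at least as many covered bases. ARR3 was lowest in replicate 1, and ARR3 and ARR15 both had 0 bp in replicate 2. In 8 members cover was higher in replicate 1, and ARR5 and ARR7 differed most between the libraries, by 322 bp and 419 bp.

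**Figure D3:**
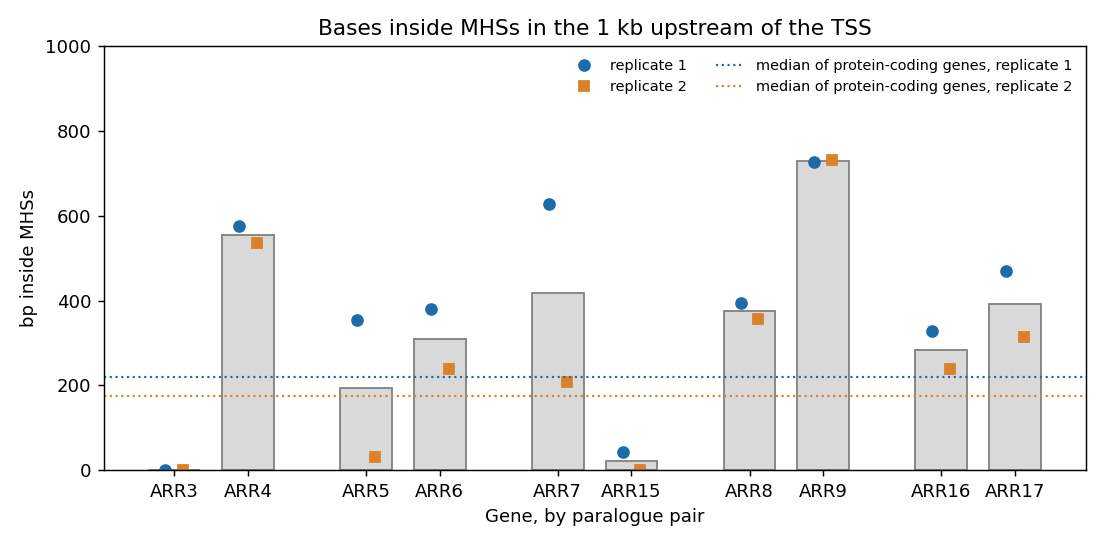
Bases inside MHSs in the 1 kb upstream of the TSS, in bp on the y axis, for each gene by paralogue pair. Blue circles are replicate 1, orange squares are replicate 2, grey bars are their mean and dotted lines are the medians of all protein-coding genes. ARR4 and ARR9 stand at 536 bp or more in both replicates, ARR3 and ARR15 stand at 44 bp or less, and the points of ARR5 and ARR7 lie far apart.

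Across the pairs, upstream cover did not overlap between the genes in 3 of 5 pairs: ARR3 and ARR4, ARR7 and ARR15, and ARR8 and ARR9. The same was seen in 26 of the 40 other combinations of 2 members (65%), against 60% of the pairs. Proteins were 56.3% to 80.1% identical within the pairs and 26.9% to 60.7% identical in the other combinations, with a small overlap of the ranges. Identity was counted as a share of the longer sequence, which lowers it where lengths differ. The lowest value of each range involves ARR3, the longest protein with 323 residues, against 259 in ARR4. The overlap of the ranges is that of this measure, and identity over the shorter sequence was not computed. The 1 kb upstream was 52.8% to 57.7% identical within pairs and 51.7% to 56.2% in the other combinations, and these ranges largely overlapped. With MHSs below 100 bp left out, all 5 pairs had values that did not overlap, as did 30 of the 40 other combinations (75%).

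ARR3 and ARR4 act on the circadian clock, and ARR4 also binds the red light receptor phytochrome B. ARR3 (AT1G59940, chr1:22065617-22067233, minus strand) had 0 bp of upstream cover in both replicates, while ARR4 (AT1G10470, chr1:3441988-3444360, minus strand) had 575 bp in replicate 1 and 536 bp in replicate 2. The difference, ARR3 minus ARR4, was -575 and -536 bp, and its mean was -555.5 bp. The nearest MHS upstream of ARR3 lay 3655 bp away in replicate 1 and 5251 bp away in replicate 2, so ARR3 was the only member with no MHS in the 3 kb upstream in either library, as in 8.26% of all genes, a count made after the positions were seen. Within 1 kb no MHS was seen in either library at ARR3 and at 16.4% of genes. The coding neighbour AT1G59950 lies 799 bp upstream of ARR3, whereas 5206 bp separate ARR4 from AT1G10480. The body of AT1G59950 spans -3355 to -800 bp from the ARR3 TSS and so fills most of the 3 kb upstream.

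At the ARR4 TSS, replicate 1 had a 139-bp MHS (-130 to 8, positions counted from the TSS base as 0) and replicate 2 a 105-bp MHS (-88 to 16). Further upstream replicate 1 had a single 445-bp MHS (-586 to -142), where replicate 2 had MHSs of 290 bp (-592 to -303) and 158 bp (-290 to -133). A 5′ UTR MHS followed at 196 to 377 in replicate 1 and at 194 to 383 in replicate 2. The same upstream territory was thus listed in both libraries with nearly equal outer edges, split differently. Both genes had a shared MHS at the end of the coding sequence. At ARR3 it was 266 bp long in replicate 1, with 18 bp of coding sequence and 248 bp past the stop codon, and 210 bp long in replicate 2, with 26 bp and 184 bp. At ARR4 it was 198 bp in replicate 1, with 15 bp of coding sequence and 183 bp past the stop, and 222 bp in replicate 2, with 24 bp and 198 bp. A shared MHS over the last base of the stop codon was found in 2 members, this pair, and in 4.72% of genes. This zone was chosen after the positions were seen. It was the only shared MHS of ARR3.

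ARR5 and ARR6 are strongly induced by cytokinin, and the ARR5 promoter drives common cytokinin reporter lines. ARR5 (AT3G48100, chr3:17758427-17760950, minus strand) had 354 bp and 32 bp of upstream cover in replicates 1 and 2, and ARR6 (AT5G62920, chr5:25252007-25254318, minus strand) had 381 bp and 239 bp. ARR5 minus ARR6 was -27 and -207 bp with a mean of -117 bp, and the values of the genes overlapped. Where windows were cut at the nearest coding gene, the mean was -6.5 bp. The ARR5 value rested on the library: replicate 1 had MHSs at -202 to 87, -416 to -320 and -547 to -493, and replicate 2 had a single one at -32 to 95.

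At ARR6 the 239 bp of replicate 2 came from an MHS at -631 to -393, and the only shared upstream MHS was this one and its partner in replicate 1 at -594 to -428. It covers the TSS of AT5G62930, a gene in the opposite direction whose TSS lies at -503, and its midpoint in both libraries is in the 5′ UTR of that gene. An MHS over the ARR6 TSS was seen in replicate 1 (-214 to 133), while replicate 2 had 83 bp within the 5′ UTR (54 to 136). To which gene the divergent MHS belongs cannot be told from positions.

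ARR5 and ARR6 each had a shared MHS in the last intron, number 4 of 4. The ARR5 intron is 750 bp long, and its MHS was 490 bp in replicate 1 and 236 bp in replicate 2. The ARR6 intron is 603 bp long, and its MHS was 439 bp in replicate 1 and 311 bp in replicate 2. ARR9 also had a shared intron MHS, in intron 1 of 5, which lies before the start codon and is 599 bp long, with 368 bp in replicate 1 and 240 bp in replicate 2. A shared MHS with both midpoints in an intron was found in 3 members and in 5.43% of genes, a zone likewise chosen after the positions were seen. The ARR5 and ARR6 stretches covered in both libraries are shown because they lie at the same intron of a paralogue pair. ARR5 is chr3:17759358-17759593 and ARR6 is chr5:25253008-25253307, both on the minus strand, the ARR6 stretch of 311 bp being cut at 300 bases, and capitals mark here the runs of at least 10 bases that are the same in the 2 stretches.
ARR5 intron: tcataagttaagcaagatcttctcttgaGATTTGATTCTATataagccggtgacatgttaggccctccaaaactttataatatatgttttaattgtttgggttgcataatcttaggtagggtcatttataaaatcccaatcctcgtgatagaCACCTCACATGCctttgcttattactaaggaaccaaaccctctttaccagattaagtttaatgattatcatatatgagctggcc
ARR6 intron: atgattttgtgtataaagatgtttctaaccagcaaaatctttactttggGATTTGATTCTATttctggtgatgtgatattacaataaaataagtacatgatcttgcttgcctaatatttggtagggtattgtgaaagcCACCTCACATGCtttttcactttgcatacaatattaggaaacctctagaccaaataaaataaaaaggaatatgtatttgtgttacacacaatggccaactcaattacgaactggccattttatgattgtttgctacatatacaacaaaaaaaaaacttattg
The runs were 13 bases long, GATTTGATTCTAT, and 12 bases long, CACCTCACATGC, and came in the same order. No run of that length was shared between either stretch and the ARR9 intron stretch. Over the whole introns ARR5 and ARR6 were 52% identical, beside 50.9% for ARR5 and ARR9 and 55.9% for ARR6 and ARR9.

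ARR7 and ARR15 restrain cytokinin signalling in the shoot meristem and in the early root. ARR7 (AT1G19050, chr1:6577833-6579314, minus strand) had 627 bp of upstream cover in replicate 1 and 208 bp in replicate 2, while ARR15 (AT1G74890, chr1:28131447-28133025, minus strand) had 44 bp and 0 bp. ARR7 minus ARR15 was 583 and 208 bp with a mean of 395.5 bp. Whole-window cover did overlap between these genes, with 785 bp and 319 bp at ARR7 and 390 bp and 175 bp at ARR15. At ARR7 a 497-bp MHS (-339 to 157) in replicate 1 enclosed the 319-bp MHS (-208 to 110) of replicate 2, and an MHS at -847 to -560 was seen in replicate 1 alone. These were the only MHSs in the ARR7 window. The 1 shared MHS of ARR15 lay downstream, at 1722 to 1993 in replicate 1 and 1820 to 1994 in replicate 2, and covered the TSS of the next gene, NdhO (AT1G74880), which encodes a subunit of the chloroplast NADH dehydrogenase-like complex. In replicate 2 the nearest MHS upstream of ARR15 was 5604 bp away. Much of that distance lies in the coding genes AT1G74900 (-2642 to -908) and AT1G74910 (-5946 to -2336).

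ARR8 and ARR9 are known for a weaker induction by cytokinin than other members. ARR8 (AT2G41310, chr2:17221840-17224880, plus strand) had 394 bp and 356 bp of upstream cover in replicates 1 and 2, and ARR9 (AT3G57040, chr3:21109059-21111567, plus strand) had 726 bp and 730 bp. ARR8 minus ARR9 was -332 and -374 bp with a mean of -353 bp. Over the 3 kb upstream the mean difference was -129 bp, and over the whole window ARR8 had more, with 2504 bp and 2169 bp against 2153 bp and 1661 bp at ARR9. These are the members with the most covered window bases in replicate 2. No coding gene lies within 5547 bp upstream of ARR8 or 5339 bp upstream of ARR9. A long non-coding RNA gene, AT3G08815, lies 707 bp upstream of ARR9. Part of the ARR9 upstream cover came from a shared MHS at -1016 to -829 in replicate 1 and -1004 to -714 in replicate 2. Its midpoint lay in AT3G08815 in both libraries.

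At the ARR8 TSS, replicate 1 had 415 bp (-156 to 258) and replicate 2 had 162 bp (-122 to 39). A separate MHS at -658 to -421 in replicate 1 was matched at -667 to -434 in replicate 2, and further MHSs followed with 4 in each library beyond 1 kb, all of them shared. The longest MHS in a member window was one of these, 595 bp at -1701 to -1107 in replicate 2, where replicate 1 had 467 bp (-1532 to -1066) and 75 bp. Another of the 4 in replicate 2, at -2579 to -2477, met replicate 1 by 8 bp alone. At ARR9 replicate 1 had 574 bp over the TSS (-473 to 100), which replicate 2 had as 332 bp (-461 to -130) and 184 bp (-111 to 72). Beyond 1 kb, ARR9 had 6 MHSs in replicate 1 and 3 in replicate 2, of which 3 were shared in each.

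ARR16 and ARR17 encode the shortest proteins of the family, with 165 and 154 residues against 323 in ARR3, the longest. ARR16 (AT2G40670, chr2:16969673-16972113, plus strand) had 327 bp and 238 bp of upstream cover in replicates 1 and 2, and ARR17 (AT3G56380, chr3:20905264-20906397, plus strand) had 470 bp and 313 bp. ARR16 minus ARR17 was -143 and -75 bp with a mean of -109 bp, and the values overlapped. The size of this mean moved with the choices made, to -41 bp with the limits of the transcript with the longest coding sequence and to -174.5 bp without MHSs below 100 bp. Whole-window cover did not overlap, with 468 bp and 340 bp at ARR16 and 1102 bp and 1351 bp at ARR17. The body of the coding gene AT2G40660 spans -3764 to -554 bp from the ARR16 TSS and so fills most of its 3 kb upstream. Of the ARR17 cover, 397 bp and 389 bp came from a shared MHS over the TSS of the neighbouring gene AT3G56370. All shared MHSs of ARR16 lay close upstream of its TSS, at -261 to -66 in replicate 1 and -252 to -141 in replicate 2, and at -446 to -368 and -389 to -264, which shared 22 bp. ARR17 had its shared upstream MHS further out, at -738 to -371 in replicate 1 and -736 to -424 in replicate 2, and an MHS next to the TSS (-109 to -8) in replicate 1 alone.

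Beyond 1 kb and up to 3 kb upstream, a shared MHS was found in 6 members, ARR4, ARR5, ARR6, ARR8, ARR9 and ARR17, and in 52.9% of genes. At ARR5 this MHS covered the TSS of EDD1 (AT3G48110), and at ARR17 it covered the TSS of AT3G56370. At ARR6 it lay mostly between the coding genes AT5G62930 (-2301 to -503) and AT5G62940 (-4386 to -2534). With windows cut at the nearest other coding gene, 5 members had a shared MHS at this distance. In the 1 kb downstream of the TTS, 4 members, ARR5, ARR15, ARR8 and ARR17, and 43.9% of genes had a shared MHS. In the gene body past its first 200 bp, 6 members and 32.2% of genes had a shared MHS. The members with one were ARR3 and ARR4 at the stop codon, ARR5, ARR6 and ARR9 in an intron, and ARR8 in the 3′ UTR. The midpoint of the ARR8 MHS also lay in a long non-coding RNA gene, AT2G09250, in both libraries. ARR4 had further shared stretches in the 5′ UTR (196 to 377) and the 3′ UTR (1948 to 2034). ARR5 had another of 20 bp in the 3′ UTR (2471 to 2490). Over all windows, 4 MHSs of replicate 1 and 5 of replicate 2 covered the TSS of another coding gene.

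By their midpoints, 18 MHSs of replicate 1 and 16 of replicate 2 lay more than 1 kb upstream, 10 and 8 lay between 200 bp and 1 kb upstream, and 9 and 5 lay within 200 bp upstream. The 5′ UTR held 4 and 3, introns 4 and 4, the 3′ UTR 6 and 4, and the region past the TTS 10 and 7. Coding sequence held a single midpoint, of a 70-bp MHS of ARR3 in replicate 1 that was not shared. The ARR16 gene had 1 further MHS in each library outside its main transcript, and neither was shared.

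Position by position, at most 8 of 10 members were inside an MHS of replicate 1, first at -156, and at most 5 in replicate 2, first at -461. Over all genes the highest shares were 59.5% at -34 in replicate 1 and 50.0% at -11 in replicate 2. Between 200 bp and 1 kb upstream, MHSs had their midpoints at ARR4, ARR6, ARR8, ARR9, ARR16 and ARR17 in both libraries, and at ARR5 and ARR7 in replicate 1 alone.

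**Figure D4:**
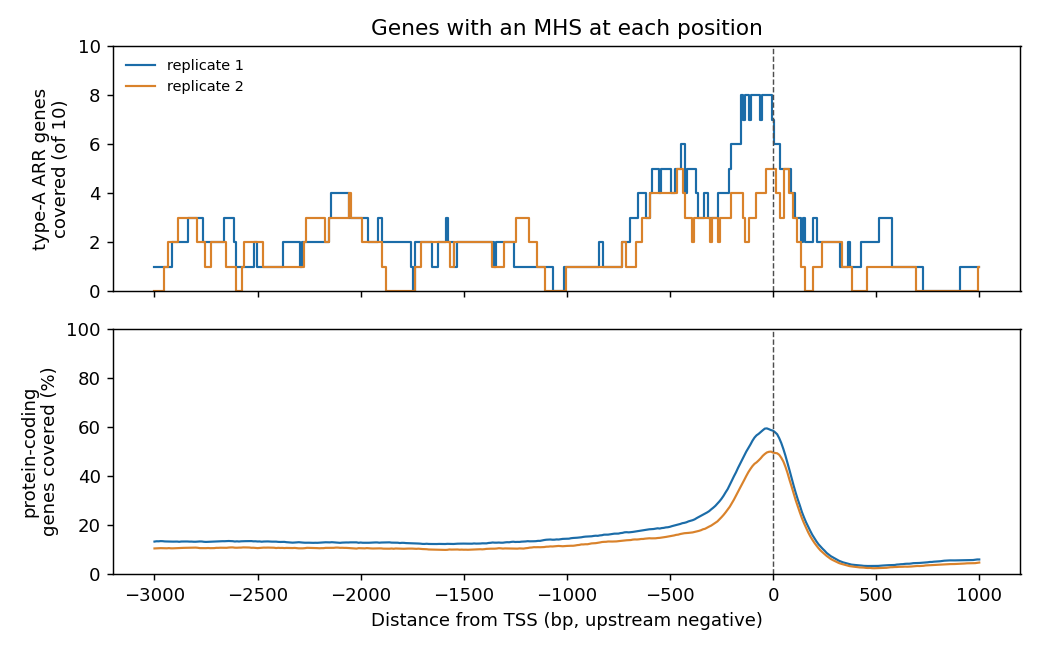
Number of type-A ARR genes of 10 (upper panel) and percentage of protein-coding genes (lower panel) inside an MHS at each distance from the TSS in bp, for replicate 1 in blue and replicate 2 in orange. All genes form a single peak at the TSS that reaches 59.5% in replicate 1 and 50.0% in replicate 2, and the ARR genes reach 8 genes in replicate 1 and 5 in replicate 2.

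Replicate 1 had 63 MHSs in the member windows, and 41 of them were shared with replicate 2 (65.1%, exact Clopper-Pearson 95% interval 52.0% to 76.7%), and over the whole genome 61.9% did. Replicate 2 had 48, of which 41 were shared with replicate 1 (85.4%, interval 72.2% to 93.9%), and over the whole genome 86.9% did. The intervals cover counting error only, since neighbouring MHSs are not independent. Among MHSs of at most 100 bp, 6 of 22 in replicate 1 (27.3%, interval 10.7% to 50.2%) and 3 of 5 in replicate 2 (60%, interval 14.7% to 94.7%) were shared. Among longer ones, 35 of 41 (85.4%, interval 70.8% to 94.4%) and 38 of 43 (88.4%, interval 74.9% to 96.1%) were. Shared MHSs had a median length of 238 bp in replicate 1 and 210 bp in replicate 2, and the others 79 bp and 102 bp. Over the whole lists these medians were nearly the same, 237 bp and 207 bp for the shared and 75 bp and 104 bp for the others. In the member windows the median A/T content was 67.1% and 64.8% for the shared, and 74.6% and 69.1% for the others. The shares by length and the A/T content were not compared with the whole lists. The 47 overlapping pairs of MHSs had a median of 167 bp in common, which was 57.1% of the bases that either covered, and their starts and ends differed by a median of 37 bp and 75 bp.

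AGATT was found in the 1 kb upstream of all 10 members and of 98.2% of genes, with a median of 5.5 matches in the members and 4 in all genes. AGATC was found in 8 members and 76.3% of genes, with 7 matches at ARR5 and 0 at ARR15 and ARR8. AGATCT, whose letters read as AGATC on both strands, was found in 4 members, ARR3, ARR5, ARR6 and ARR7, and in 24.8% of genes. AGATACG, a longer form of a type-B ARR site, was found in the 1 kb upstream of 0 members and of 6.02% of genes. Beyond 1 kb, a shared ARR8 MHS held 2 AGATACG matches, at -3031 to -2689 in replicate 1 and -2953 to -2796 in replicate 2. This longer distance was not searched over all genes. Inside MHSs of the upstream 1 kb, the members had 6.41 AGATT matches per kb in replicate 1 and 5.66 in replicate 2, and outside them 4.92 and 5.44, while all genes had 3.70 and 3.41 inside and 4.49 and 4.51 outside. AGATC came to 2.57 and 3.39 per kb inside the MHSs of the members and 3.11 and 2.72 outside, and to 1.32 and 1.53 inside and 2.13 and 2.02 outside in all genes. The member values rest on 25 and 15 AGATT and 10 and 9 AGATC matches in replicates 1 and 2. For AGATC the order of inside and outside was not the same in the 2 libraries. All motifs were searched on both strands, and a match is a description of letters, not of binding.

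Other genes of the cytokinin pathway were read in the same way. Of 44 genes in 7 lists, 26 had a shared MHS in the 1 kb upstream, beside 70.4% of all protein-coding genes. The medians of upstream cover over these 44 genes were 171.5 bp in replicate 1 and 108.5 bp in replicate 2, below the 220 bp and 174 bp of all genes. All 6 cytokinin response factors, which are AP2-type transcription factors, had a shared MHS, with medians of 662.5 bp and 496 bp. Of the receptors 2 of 3 did, the exception being AHK4, and of the phosphotransfer proteins 4 of 6 did, the exceptions being AHP4 and AHP6, of which AHP6 is an inhibitory pseudo-phosphotransfer protein. Type-B regulators had a shared MHS in 5 of 11 genes, with medians of 160 bp and 0 bp, and type-C regulators in 1 of 2 genes, the exception being ARR24. Cytokinin synthesis genes of the isopentenyltransferase (IPT) family had it in 5 of 9 genes and the degrading cytokinin oxidases (CKX) in 3 of 7. The type-A ARR genes had it in 8 of 10 genes, near the 70.4% of all protein-coding genes. The lists are short, and no test was made of these counts.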

How the data were processed

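Both MH-seq libraries belong to 1 group. Adapters were removed by the authors with Cutadapt, alignment to TAIR10 was done with Bowtie 2, and full-length alignments above a mapping quality limit were kept, and MHSs of each library were called with Jazz. No tool version and no cut-off value of the Jazz calls is given in the sources used here. The deposited lists give chromosome, start and end of each MHS, 0-based and half-open, with no score or count. Calls made per library depend on its depth and background, which differ and were not analysed here. The numbers of the libraries do not pair samples, and p-values are not given.

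Positions were set against the RefSeq annotation of TAIR10.1, which holds 37899 genes and pseudogenes. Overlap needed at least 1 bp. Identity came from global alignments, of coding sequence translated from the reference for proteins, and is a share of the longer sequence. The members and lists were chosen with earlier results of these data known, and all members are named. Of the pathway lists, genes without a shared upstream MHS are named where a list has 3 or fewer. Python 3.11.15, numpy 2.4.6, scipy 1.17.1, Biopython 1.88 and matplotlib 3.10.9 were used, and overlaps equalled those of bedtools 2.31.1 in 20 of 20 windows. The functions were tested on simulated data, where 200 of 200 sets were recovered. Alternatives changed the overlap needed, the shortest MHS, merging, gene limits, window size and the library used.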

Additional observations from a re-analysis of the deposited data

How the results depend on the processing

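A count was taken as moved when it changed by more than 1.5 times, the median upstream cover when it changed by more than its SD over the 2 libraries (105 bp), a share when it left its 95% interval, and a pair difference when it changed by more than its SD over the 2 libraries, which is wide where the libraries disagree. By these limits 3 values of the main results moved, 55 did not and 0 reversed. With 500 bp in place of 1 kb upstream, the median over members of the mean upstream cover of both libraries was 205 bp, against 342.5 bp. With MHSs below 100 bp left out, the share of replicate 1 MHSs that overlapped replicate 2 was 82.9%, against 65.1%, and the number of paralogue pairs with upstream cover that did not overlap was 5, against 3, while the other 40 combinations of members came to 30, against 26. With 1 kb in place of 3 kb upstream, the windows held a mean of 38.5 MHSs over the libraries, against 55.5. From each library alone, the member windows held 48 to 63 MHSs, 8 to 9 members had an upstream MHS, 5 to 7 had one over the TSS, 5 to 6 had one downstream and 6 had one beyond 1 kb, and the median upstream cover was 238.5 to 387.5 bp. A call from a single library means an MHS in that library, and replicate overlap and pair counts cannot be given from it. Of the pair differences, 7 values moved and 0 changed sign. They were -589 bp (merged MHSs) and -1103.5 bp (3 kb upstream) for ARR3 minus ARR4, -312.5 bp (without MHSs below 100 bp) and -129 bp (3 kb) for ARR8 minus ARR9, and -174.5 bp (without MHSs below 100 bp), -41 bp (longest coding transcript) and -646.5 bp (3 kb) for ARR16 minus ARR17. ARR5 minus ARR6 (-117 bp) and ARR7 minus ARR15 (395.5 bp) were not stable in size. The first was -207 and -27 bp in the single libraries, -193 bp without MHSs below 100 bp and -6.5 bp with windows cut at the nearest coding gene, and the second was 208 and 583 bp in the single libraries. The alternatives for the TSS, downstream and distal counts and for the other combinations were chosen after seeing the data. The lists hold no depth, so an MHS missing from a list may be an open site below the authors' threshold.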
